A study of Mus musculus with 37 samples.

Results

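NKp46, the SLAM family of receptors and the SAP adaptors that bind their tails were followed in uterine NK (uNK) cells. The members are 9 genes named for their function: the activating receptor gene Ncr1 (NKp46), the SLAM receptor genes Slamf6, Slamf7, Cd84, Ly9 and Cd48, and the adaptor genes Sh2d1a (SAP), Sh2d1b1 (EAT-2) and Sh2d1b2 (ERT). All 9 had a row among the 53700 genes counted, and each was read in 37 RNA-seq libraries of 5 groups. Live CD45+ NKp46+ cells negative for lineage markers that included CD3, CD4, CD8 and high CD11b had been sorted from pregnant uteri of gestation day 9.5 to 10.5 and divided by 2 inhibitory receptors for MHC class I, NKG2A and Ly49C/I. Cells that carried neither receptor were called uneducated, and cells that carried both were not collected. C57BL6 wild-type (WT) mice gave 9 uneducated, 9 NKG2A+ and 6 Ly49C/I+ libraries, and mice described as NKG2A KO C57BL6 gave 8 uneducated and 5 Ly49C/I+ libraries. The antibody used for NKG2A is listed as recognising NKG2A, NKG2C and NKG2E. The labels do not say whether libraries came from separate or pooled mice, so p-values measure the spread between libraries. NKp46 was the protein by which every library was sorted, so that the presence of Ncr1 is part of the design, and only its level was compared.

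NKp46 recognises ligands on infected, transformed and stressed cells and signals through the ITAM-bearing partners CD3 zeta and Fc receptor gamma chain. SLAM family receptors sit on most haematopoietic cells. Most of them bind their own kind on a neighbouring cell, while CD48 is a lipid-anchored ligand of 2B4, the product of Cd244a. Tyrosine motifs in the receptor tails are docked by SAP, which brings in the kinase Fyn, or by EAT-2 and ERT, which lack that link to Fyn. The same motifs can bind inhibitory phosphatases when an adaptor is missing.

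Members with sequence in common need care in a table of counts, and among these 9 genes the pair Sh2d1b1 and Sh2d1b2 was the case in point. In the GENCODE M21 annotation of GRCm38, Sh2d1b2 (ENSMUSG00000073494) spans bases 170232749 to 170253608 of chromosome 1 and Sh2d1b1 (ENSMUSG00000102418) spans bases 170277320 to 170286769, both on the plus strand. Each coding sequence has 396 bases, and 362 of 395 aligned bases were identical (91.6%). The first 154 coding bases are the same in both genes, and this is the longest stretch that they share. It is shown because reads that lie wholly inside it cannot be given to either gene:
shared start of both coding sequences: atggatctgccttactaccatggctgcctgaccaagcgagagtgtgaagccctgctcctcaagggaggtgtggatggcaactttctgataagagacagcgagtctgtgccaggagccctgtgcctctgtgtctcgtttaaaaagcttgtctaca
Over whole transcripts, 13.4% of the stretches of 50 bases of Sh2d1b1 and 13.1% of those of Sh2d1b2 occur in the other gene, so most of each transcript is its own. The coding sequence of Sh2d1a on chromosome X (42502453 to 42529330) was less alike, with 67.0% of aligned bases identical to Sh2d1b1 and 64.8% to Sh2d1b2.

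The SLAM receptor genes lie together on chromosome 1, from Ly9 (ENSMUSG00000004707, 171588624 to 171607410, minus strand) and Slamf7 (ENSMUSG00000038179, 171632403 to 171653035, minus strand) to Cd48 (ENSMUSG00000015355, 171682009 to 171705258, plus strand), Cd84 (ENSMUSG00000038147, 171839697 to 171890718, plus strand) and Slamf6 (ENSMUSG00000015314, 171917515 to 171953170, plus strand). Ncr1 (ENSMUSG00000062524) lies on chromosome 7 from 4337724 to 4345164 on the plus strand. Exons of Slamf7 overlap Gm37787 and exons of Sh2d1a overlap Tenm1, in both cases on the opposite strand, and the sources used here do not say whether counting used the strand. RefSeq promoters in GRCm38.p6 were found for 7 members, and the 250 bases before the RefSeq start are shown for Ncr1 and Sh2d1b1, since the results below turn on these genes. The window of Sh2d1b2 is not shown, because its last 122 bases lie inside the gene as GENCODE draws it, from an earlier start. Capitals mark the RUNX core TGTGGT, or ACCACA for the other strand, which is in 14.0% of 32851 promoters of this length:
Ncr1, chr7:4337465-4337714, plus strand: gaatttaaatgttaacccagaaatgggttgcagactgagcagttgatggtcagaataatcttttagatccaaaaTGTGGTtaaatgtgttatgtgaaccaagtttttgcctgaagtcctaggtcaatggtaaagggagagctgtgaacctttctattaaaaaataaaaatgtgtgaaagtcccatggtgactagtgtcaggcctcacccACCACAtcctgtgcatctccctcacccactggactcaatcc
Sh2d1b1, chr1:170277068-170277317, plus strand: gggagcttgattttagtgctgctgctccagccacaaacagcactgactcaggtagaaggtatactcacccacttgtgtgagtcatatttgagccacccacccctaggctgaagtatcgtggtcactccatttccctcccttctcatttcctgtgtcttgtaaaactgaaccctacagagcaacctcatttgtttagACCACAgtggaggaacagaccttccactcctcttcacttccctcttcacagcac
The RUNX letters begin 176 and 41 bases before the RefSeq start of Ncr1 and 54 bases before that of Sh2d1b1, and they are also in the windows of Cd84 and Cd48 (45 and 76 bases before the RefSeq start). In Sh2d1b2 they begin 112 bases before the RefSeq start, which is inside the GENCODE gene, so that the place of these letters relative to its start differs between the 2 annotations. Of the T-box core AGGTGT (11.8% of promoters), the GATA core AGATAA (9.99%) and the ETS core AGGAAG (29.5%), each searched on both strands, the T-box letters were found in Cd84 and the ETS letters in Slamf7, whose whole window lies inside the GENCODE gene. None of these letters was found in the window of Slamf6. The windows of Sh2d1b1 and Sh2d1b2 aligned over 189 bases, of which 171 were identical (90.5%). A match is a description of the letters and not a bound site.

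Each library held 13287163 to 18875033 reads on genes (median 17273311). Values are given as CPM, counts scaled to a common library size after the TMM method. The sort was visible in the RNA. Klrc1, the gene of NKG2A, had 610 ± 91.5 CPM (SD, n = 9) in NKG2A+ cells and mean levels between 2.17 and 4.31 CPM in the other 4 groups. Klra9, the gene of Ly49I, had 658 ± 96.4 CPM (SD, n = 6) and 989 ± 154 CPM (SD, n = 5) in the Ly49C/I+ cells of WT and NKG2A KO mice, against mean levels of 70.8 to 107 CPM in the groups sorted without it. All 8 NK cell markers in the list used were expressed in every group. Among 8 T cell markers, Cd4 and Cd8a had mean levels of at most 0.379 CPM in every group, and the summed level was 86.5 to 187 CPM in uneducated, 95.4 to 229 CPM in NKG2A+ and 106 to 220 CPM in Ly49C/I+ libraries of WT mice. Summed macrophage markers reached 413 CPM in 1 library and had group medians of 33.4 to 91.9 CPM, and summed dendritic cell and neutrophil markers reached at most 51.9 and 44.9 CPM. Stromal markers and endothelial markers other than Pecam1 were at mean levels under 5 CPM in every group. WT uneducated library 5 stood apart from the rest of its group, with the fewest genes that had a count (13990, against at least 15572 in the other 8). Several results that rest on it, though not all, are also given without it. WT NKG2A+ library 9 had 13982 such genes, against at least 15245 in the other 8 of its group. WT Ly49C/I+ library 5 had 14038 (next lowest 14989) and NKG2A KO Ly49C/I+ library 5 had 14197 (next lowest 15114). This NKG2A KO library also held the lowest Sh2d1b2 and the highest Sh2d1b1 and Cd84 levels of its group.

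Per length, Ncr1 was the most abundant member in each of the 5 groups. Levels between genes were compared as CPM per kilobase of annotated exon. Averaged over the 37 libraries, Ncr1 stood at 508 CPM per kb. Cd48 followed at 230 CPM per kb. Slamf7 (39.3 CPM per kb) and Ly9 (38.5 CPM per kb) were next, then Sh2d1b1 (27.7), Sh2d1a (16.2), Sh2d1b2 (15.5) and Cd84 (11.2), all in CPM per kb. Slamf6 was far below, at 0.537 CPM per kb, and the exons annotated for it are long (10832 bases, against 5729 bases in its longest transcript). Annotated exons also exceed the longest transcript in Sh2d1a (5505 against 2746 bases), Cd84 (6272 against 3434) and Ly9 (3307 against 2488). For Slamf7 the lengths are 4577 and 3975 bases, and for Sh2d1b1 both are 2544 bases. The order of the members from Slamf7 to Cd84 therefore depends on the length used. Slamf7 and Ly9 were not separated beyond their spread in WT Ly49C/I+ cells, at 36.3 ± 4.33 and 36.0 ± 10.6 CPM per kb (SD, n = 6). In WT uneducated cells Ly9 (27.9 ± 7.96 CPM per kb) was below Slamf7 (40.3 ± 8.33 CPM per kb), whereas in NKG2A+ cells it was above it (53.4 ± 9.59 against 39.1 ± 3.27 CPM per kb, SD, n = 9 each). WT uneducated library 5 had the lowest Ly9 (37.2 CPM) and the highest Slamf7 (273 CPM) of its group.

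**Figure D1:**
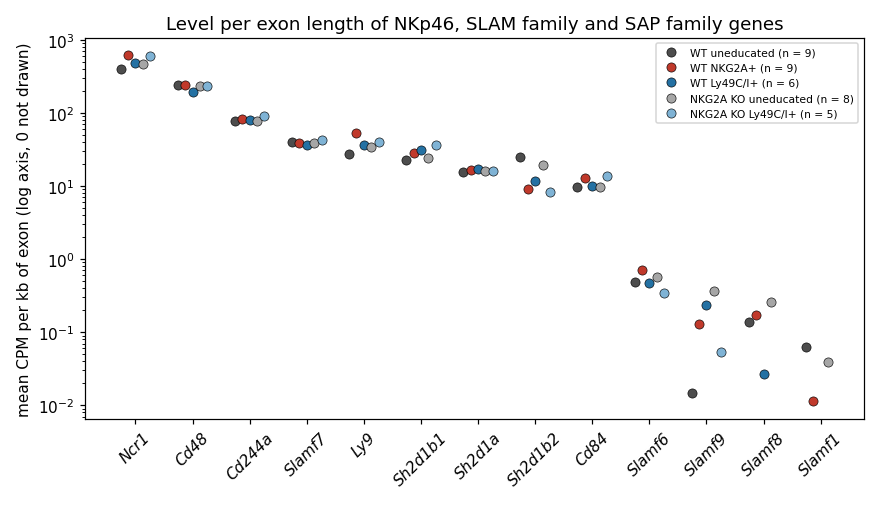
Mean CPM per kb of exon (log axis) for each member and for Cd244a, Slamf1, Slamf8 and Slamf9, with 1 point for each of the 5 groups and means of 0 not drawn. Ncr1 and Cd48 lead in every group, and Slamf6 lies more than 10-fold below the other members.

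The SLAM genes outside the 9 members fell into an expressed gene and a near-silent group. Cd244a, the receptor for CD48, was at 296 to 510 CPM over all libraries, or 81.0 CPM per kb. Slamf1 had a count in 8 of 37 libraries, Slamf8 in 12 and Slamf9 in 10, and none of these 3 genes exceeded 3.87 CPM in any library. No count of Slamf1 was seen in either Ly49C/I+ group, which allows up to 0.0302 CPM in WT and 0.0335 CPM in NKG2A KO cells, from 3 counts over the group and for counting error only.

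In WT mice, NKG2A+ cells held more Ncr1, Ly9 and Cd84 and less Sh2d1b2 than uneducated cells. This comparison asks how cells with NKG2A, an educating receptor, differ from cells with neither receptor. Of the 9 members, all of which were tested, 3 rose and 1 fell, against 15% of the 9339 genes tested. The median log2 fold change of the members was 0.29, and that of all genes tested was 0.01. Tests used edgeR's quasi-likelihood method with Benjamini-Hochberg adjustment over all genes tested. In these bulk libraries, fewer cells that express a gene and less RNA per cell cannot be told apart.

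Ncr1 was counted at 492 CPM in the lowest, 630 CPM in the median and 663 CPM in the highest WT uneducated library. In the WT NKG2A+ libraries these values were 845, 970.5 and 997 CPM. The 2 groups did not overlap, with all NKG2A+ libraries on top. Ncr1 rose by 0.64 on the log2 scale (SE 0.0633, adjusted p = 1.27e-06), or 1.56-fold, and Ncr1 ranked 7th by p among all genes tested. Over the 27 alternative settings the log2 fold change stayed between 0.60 and 0.70 and past the threshold. Of the other NK cell markers listed, Klrb1c, Klrk1, Itga2 and Tbx21 also rose past the threshold (log2 fold changes 0.62, 0.71, 0.98 and 0.45). Prf1 and Gzmb fell past it (-0.69 and -0.68), and Eomes (-0.17) did not pass.

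Ly9 encodes the SLAM receptor CD229. Its levels in the WT uneducated libraries ran from 37.2 CPM through a median of 96.3 CPM to 119 CPM. The WT NKG2A+ libraries ran from 117 CPM through 183 CPM to 213 CPM. The groups met only at their edges, where the highest uneducated library passed the lowest NKG2A+ library. Ly9 rose by 0.94 on the log2 scale (SE 0.171, adjusted p = 0.000625), and the lowest uneducated value came from library 5, and without both libraries numbered 5 the log2 fold change was 0.82 (adjusted p = 0.000294). Ly9 is also a gene of T cells, and the T cell marker Cd3e was at 4.10 ± 2.32 CPM in WT uneducated and 14.6 ± 8.27 CPM in WT NKG2A+ libraries (SD, n = 9 each). Cd3d also had the higher mean in NKG2A+ libraries (26.4 ± 9.66 against 11.6 ± 3.34 CPM), whereas Cd3g (74.9 ± 21.8 against 82.4 ± 36.5 CPM) and Trac (29.3 ± 7.56 against 34.7 ± 13.4 CPM) had the lower (SD, n = 9 each). The summed level of the 8 markers overlapped between the groups, as given above, and Cd4 and Cd8a were at 0 in 8 of 9 libraries of either group. The part of T cell RNA in the difference of Ly9 was not tested.

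Cd84 encodes another self-binding SLAM receptor. It was at 49.0 to 75.2 CPM (median 61.2) in WT uneducated and at 63.8 to 98.9 CPM (median 80.3) in WT NKG2A+ libraries, so that the groups overlapped. It rose by 0.41 on the log2 scale (SE 0.101, adjusted p = 0.00717). With offsets for GC content and length, it was 0.27 and no longer past the threshold (adjusted p = 0.103).

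Slamf6, which encodes Ly108, was the member with the fewest reads and the one that rested most on a single library. WT NKG2A+ libraries held 3.66 to 13.1 CPM (median 6.30). Of the WT uneducated libraries, 8 held 1.69 to 6.33 CPM and library 5 held 16.4 CPM, above all 9 NKG2A+ libraries. The log2 fold change was 0.56 (SE 0.389, adjusted p = 0.373). Without WT uneducated library 5 it was 1.00 (adjusted p = 0.0332), and without both libraries numbered 5 it was 1.04 (adjusted p = 0.0386).

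Slamf7 and Cd48 did not pass the test. Slamf7, the receptor CRACC, was at 151 to 273 CPM in WT uneducated and 152 to 196 CPM in WT NKG2A+ libraries, with the value of 273 CPM in uneducated library 5. Its log2 fold change was -0.04 (SE 0.10, adjusted p = 0.839), and 0.05 without both libraries numbered 5. Cd48 was at 284 ± 40.2 CPM in WT uneducated and 285 ± 34.7 CPM in WT NKG2A+ libraries (SD, n = 9 each), a log2 fold change of 0.01 (SE 0.0920, adjusted p = 0.953).

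**Figure D2:**
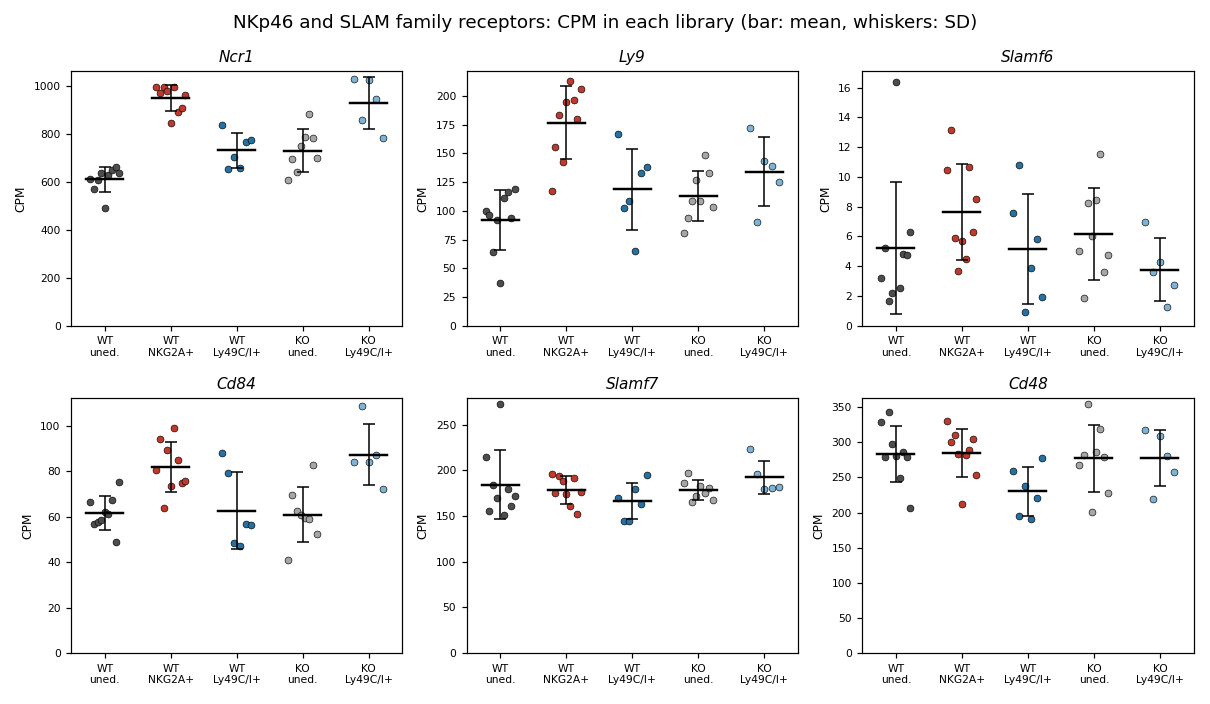
CPM of Ncr1, Ly9, Slamf6, Cd84, Slamf7 and Cd48 in each library of the 5 groups (points), with the mean (bar) and SD (whiskers). All 9 NKG2A+ libraries exceed all 9 WT uneducated and all 6 WT Ly49C/I+ libraries in Ncr1, while Slamf6 has 1 WT uneducated library at 16.4 CPM above the rest.

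Of the 3 adaptor genes, Sh2d1b2 was past the threshold. Sh2d1b2 was at 30.6 CPM in the lowest, 58.6 CPM in the median and 110 CPM in the highest WT uneducated library. The WT NKG2A+ libraries held 5.76, 22.7 and 40.4 CPM at the same positions, and 3 uneducated libraries, numbered 6, 7 and 9, were within the NKG2A+ range. Sh2d1b2 fell by 1.43 on the log2 scale (SE 0.307, adjusted p = 0.00286). The value of 5.76 CPM was that of NKG2A+ library 9, and without it Sh2d1b2 fell by 1.32 (adjusted p = 0.00242). Its paralog Sh2d1b1 was at 20.2 to 86.6 CPM in WT uneducated and 59.7 to 83.7 CPM in WT NKG2A+ libraries, a log2 fold change of 0.29 (SE 0.180, adjusted p = 0.315). The value of 20.2 CPM was that of uneducated library 5, and without both libraries numbered 5 the log2 fold change was 0.14 (adjusted p = 0.489). Sh2d1a, which encodes SAP, was at 85.4 ± 10.7 CPM in WT uneducated and 90.6 ± 11.3 CPM in WT NKG2A+ libraries (SD, n = 9 each; log2 fold change 0.09, SE 0.0979, adjusted p = 0.608). The spread of Sh2d1b2 was wide within groups, with a coefficient of variation of 45.3% in WT uneducated cells against 12.6% for Sh2d1a.

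**Figure D3:**
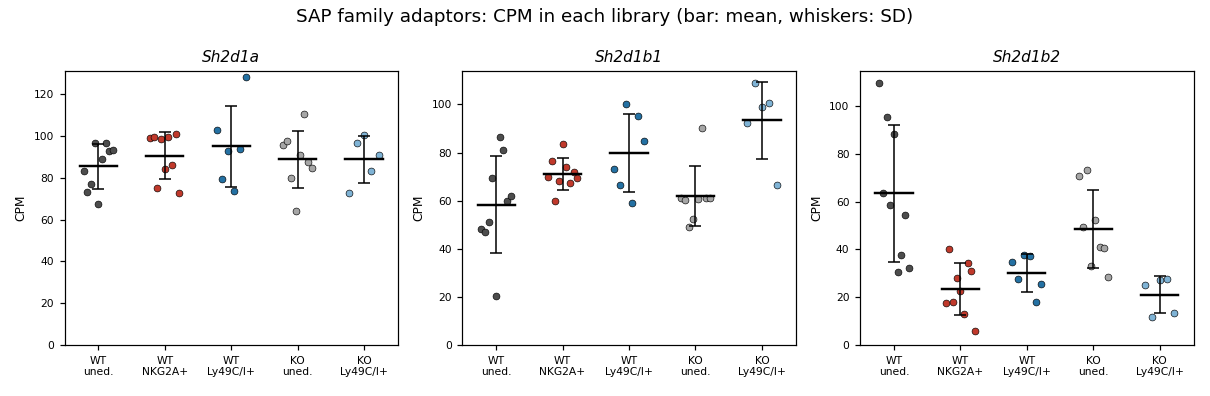
CPM of Sh2d1a, Sh2d1b1 and Sh2d1b2 in each library of the 5 groups (points), with the mean (bar) and SD (whiskers). Sh2d1b2 has its 2 highest group means in uneducated cells (63.4 CPM in WT and 48.6 CPM in NKG2A KO), and Sh2d1a has group means of 85.4 to 95.0 CPM.

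Ly49C/I+ cells of WT mice differed from uneducated cells in the same adaptor gene. Of the 8 members tested, Ncr1 rose and Sh2d1b2 fell, against 9.2% of the 9292 genes tested. The median log2 fold change was 0.09 in the members and 0.01 in all genes tested. Slamf6, at 0.956 to 10.8 CPM in the Ly49C/I+ libraries, was under the filter on low values and was not tested. This comparison shares its 9 uneducated libraries with the one above, so their results are not independent.

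Sh2d1b2 was at 17.9 to 37.6 CPM (median 31.4) in the WT Ly49C/I+ libraries. Of the uneducated libraries, 7 lay above this range, and numbers 6 and 9 lay inside it. Sh2d1b2 fell by 1.07 on the log2 scale (SE 0.283, adjusted p = 0.0245). Without WT Ly49C/I+ library 7 it fell by 0.97 and was not past the threshold (adjusted p = 0.0626), nor was it without a threshold on CPM (adjusted p = 0.0545).

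Ncr1 was at 655 to 837 CPM (median 734) in the WT Ly49C/I+ libraries, a range whose lower edge lay under the highest uneducated library. The log2 fold change was 0.26 (SE 0.0811, adjusted p = 0.0498). Leaving out any 1 of 14 libraries took the adjusted p above 0.05, up to 0.144 without WT Ly49C/I+ library 1, and only the fit without WT uneducated library 5 kept the call (adjusted p = 0.0374).

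None of the other 6 members tested passed the test. Sh2d1b1 was at 58.9 to 100 CPM in the WT Ly49C/I+ libraries, with a log2 fold change of 0.45 (SE 0.227, adjusted p = 0.226). Cd48, the ligand of 2B4, was at 190 to 278 CPM, a log2 fold change of -0.30 (SE 0.113, adjusted p = 0.101), and without WT uneducated library 9 it was -0.35 and past the threshold (adjusted p = 0.0398). Ly9 was at 64.8 to 167 CPM (log2 fold change 0.37, adjusted p = 0.317). Cd84 (0.03), Sh2d1a (0.15) and Slamf7 (-0.15) had log2 fold changes with adjusted p between 0.492 and 0.941.

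The Ly49C/I+ and uneducated cells of NKG2A KO mice were compared in the same way, with no library in common with WT. In these mice the NKG2A gate could not remove cells that would have carried NKG2A in WT mice. Both populations may therefore differ in make-up from those of WT mice, which was not tested. Of the 8 members tested, Ncr1, Cd84 and Sh2d1b1 rose and Sh2d1b2 fell, against 16.3% of the 9299 genes tested. The median log2 fold change was 0.16 in the members and 0.02 in all genes tested. Sh2d1b2 was at 25.2, 11.9, 27.4, 27.5 and 13.5 CPM in the 5 Ly49C/I+ libraries and at 28.4 to 73.5 CPM (median 45.2) in the 8 uneducated libraries. All 5 Ly49C/I+ libraries lay below all 8 uneducated libraries. Sh2d1b2 fell by 1.22 on the log2 scale (SE 0.270, adjusted p = 0.00607). This call was lost in 2 of the 21 alternative settings, described in the closing section.

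Sh2d1b1 went the other way in the NKG2A KO cells. It was at 92.2, 109, 98.9, 100 and 66.7 CPM in the Ly49C/I+ libraries and at 49.1 to 90.3 CPM (median 60.8) in the uneducated libraries. All but the lowest of the Ly49C/I+ libraries were above the uneducated range. Sh2d1b1 rose by 0.57 on the log2 scale (SE 0.144, adjusted p = 0.0127), and this call too was lost in 2 of the 21 alternative settings.

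Cd84 was at 84.0, 109, 84.1, 87.2 and 72.2 CPM in the NKG2A KO Ly49C/I+ libraries and at 40.8 to 82.5 CPM in the uneducated libraries. Cd84 rose by 0.50 on the log2 scale (SE 0.144, adjusted p = 0.0258). The call was lost without Ly49C/I+ library 5 (0.41, adjusted p = 0.0739) or 7 (0.49, adjusted p = 0.0555) and with GC and length offsets (0.43, adjusted p = 0.0653). Ncr1 was at 1031, 859, 1025, 945 and 781 CPM in the Ly49C/I+ and at 606 to 883 CPM in the uneducated libraries, a log2 fold change of 0.33 (SE 0.0929, adjusted p = 0.0240). The Ncr1 call was lost without Ly49C/I+ library 4, 6 or 7 (adjusted p of 0.0710, 0.0658 and 0.0596). With no threshold on CPM, Cd84 and Ncr1 both lost the call (adjusted p of 0.0644 and 0.0648). Without library 7 only 2 members remained past the threshold. Ly9 (0.23), Slamf7 (0.09), Cd48 (-0.02) and Sh2d1a (-0.02) had log2 fold changes with adjusted p between 0.328 and 0.941.

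Set side by side, the log2 fold changes of Ly49C/I+ over uneducated cells had the same sign in WT and NKG2A KO mice in 6 of the 8 members tested in both. The share of all genes with the same sign was not taken. Some of these changes were near 0 (Cd84 0.03 in WT, Cd48 -0.02 and Sh2d1a -0.02 in NKG2A KO), where the sign says little. The difference of the effect between genotypes passed the test for none of the 8 members and for 0 of 9322 genes, of which 407 had an unadjusted p under 0.05 in edgeR's quasi-likelihood test. The likelihood ratio test and DESeq2 each called 1 gene there, and no member. Cd84 had the largest difference among the members, 0.49 higher in NKG2A KO on the log2 scale (SE 0.210, unadjusted p = 0.0269, adjusted p = 0.9995). For Sh2d1b2 the difference was -0.14 (SE 0.401), for Ncr1 it was 0.08 (SE 0.124) and for Sh2d1b1 it was 0.13 (SE 0.29).

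**Figure D4:**
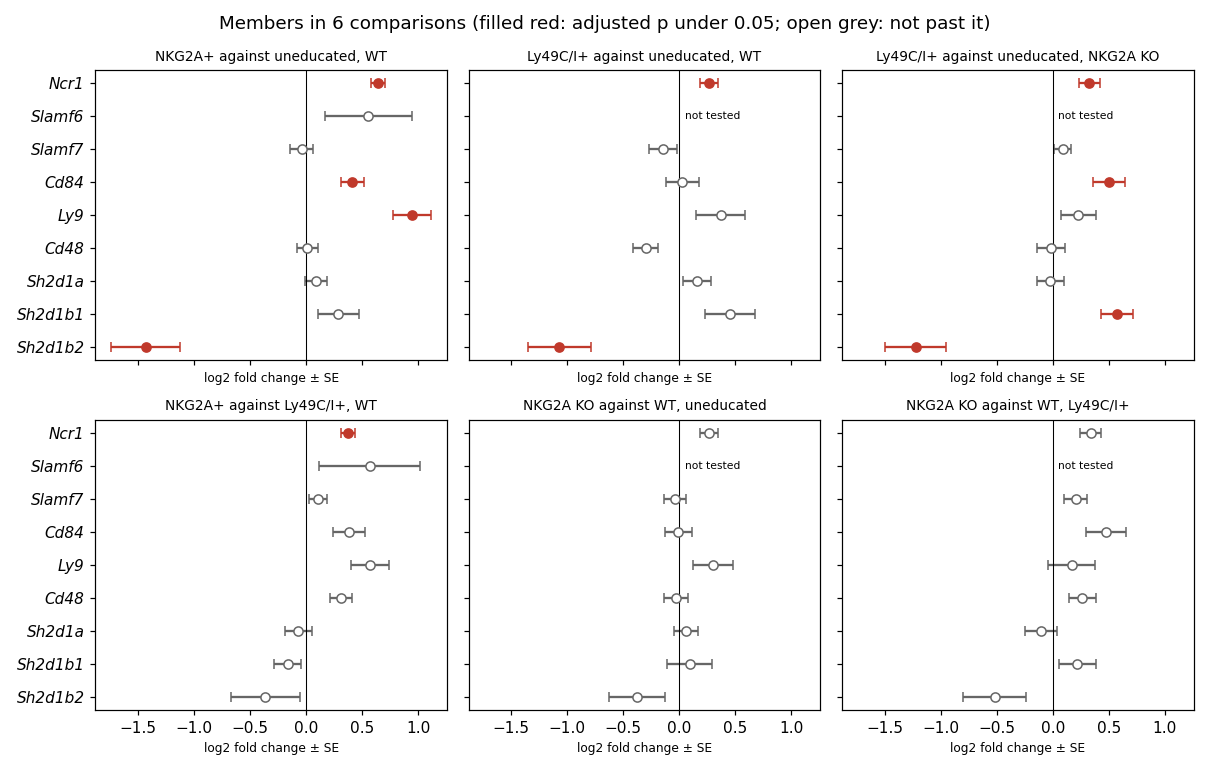
Log2 fold changes of the 9 members with their standard errors in 6 comparisons (edgeR quasi-likelihood test), filled where the adjusted p was under 0.05. Sh2d1b2 lies left of 0 in each of the 6, past the threshold in the 3 comparisons of NKG2A+ or Ly49C/I+ with uneducated cells, and Ncr1 lies right of 0 in each of the 6. The comparisons share groups of libraries, so their signs are not independent.

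The balance of the 2 EAT-2 genes was then taken within each library, as log2 of Sh2d1b1 over Sh2d1b2 with 1 CPM added to each. Their transcripts are nearly equal in length (2544 and 2542 annotated exon bases), so that CPM of the pair can be set against each other. Sh2d1b1 exceeded Sh2d1b2 in 20 of 20 libraries from NKG2A+ or Ly49C/I+ cells, in 5 of 9 WT uneducated libraries and in 6 of 8 NKG2A KO uneducated libraries. The log2 ratio was -0.08 ± 1.17 (SD, n = 9) in WT uneducated, 1.73 ± 0.793 (SD, n = 9) in NKG2A+ and 1.40 ± 0.585 (SD, n = 6) in WT Ly49C/I+ cells. In NKG2A KO mice it was 0.39 ± 0.591 (SD, n = 8) in uneducated and 2.16 ± 0.547 (SD, n = 5) in Ly49C/I+ cells, and these 2 groups did not overlap.

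The ratio was compared by two-sided exact permutation tests over libraries, a test chosen after the values were seen, with p-values adjusted over 6 comparisons. These tests use the Sh2d1b2 values already tested above, so they are no separate evidence of the fall of Sh2d1b2. The ratio was higher by 1.81 on the log2 scale in NKG2A+ than in uneducated WT cells (exact p = 0.000987, adjusted p = 0.00466). With any 1 library left out this difference ranged from 1.56 to 2.00. The lowest WT uneducated ratio, -2.08, was that of library 5. In Ly49C/I+ cells of WT mice the ratio was higher by 1.47 than in uneducated WT cells (exact p = 0.0104, adjusted p = 0.0208). With any 1 library left out this difference ranged from 1.22 to 1.67. In NKG2A KO mice the ratio was higher by 1.77 in Ly49C/I+ than in uneducated cells (exact p = 0.00155, adjusted p = 0.00466). NKG2A+ and Ly49C/I+ cells of WT mice differed by 0.33 (exact p = 0.407, adjusted p = 0.407), within the spread between libraries. NKG2A KO and WT mice differed by 0.47 in uneducated (exact p = 0.321, adjusted p = 0.386) and by 0.76 among Ly49C/I+ cells (exact p = 0.0520, adjusted p = 0.0779). The latter passed the threshold without WT Ly49C/I+ library 7 (0.96, exact test adjusted p = 0.0159).

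**Figure D5:**
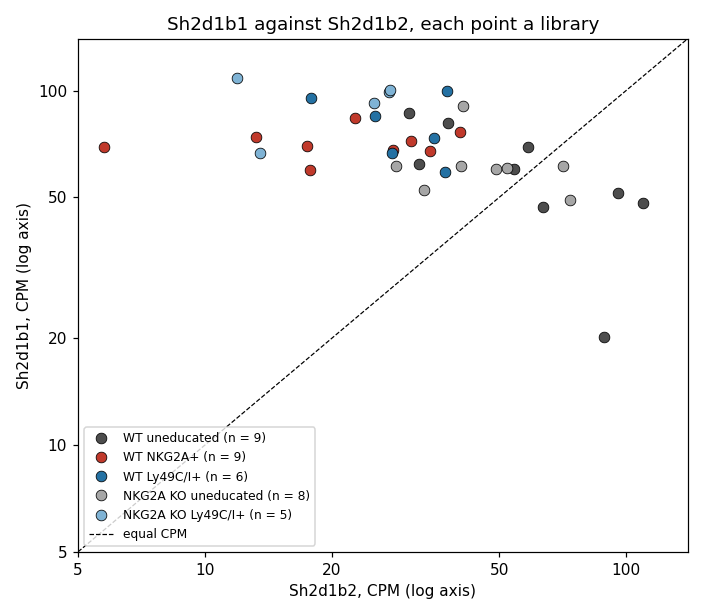
Sh2d1b1 against Sh2d1b2 in each of the 37 libraries, both in CPM on log axes, coloured by group, with a dashed line where both are equal. All 20 NKG2A+ and Ly49C/I+ libraries lie above the line, and the 6 libraries below it are uneducated.

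NKG2A+ and Ly49C/I+ cells of WT mice were then compared directly, to ask how cells with either receptor differ. Of the 9 members, all of which were tested, only Ncr1 passed the test, and it was higher in NKG2A+ cells, against 2.73% of the 9308 genes tested. The median log2 fold change was 0.31 in the members and -0.000624 in all genes tested. All NKG2A+ libraries (845 to 997 CPM) exceeded all Ly49C/I+ libraries (655 to 837 CPM). The log2 fold change of Ncr1 was 0.38 (SE 0.0631, adjusted p = 0.00389). Both groups were also set against the same uneducated libraries above.

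The receptor genes Ly9, Cd84 and Cd48 had higher means in NKG2A+ than in WT Ly49C/I+ cells but were not past the threshold. For Ly9 (177 ± 31.7 CPM, n = 9, against 119 ± 35.1 CPM, n = 6, SD) the log2 fold change was 0.57 (SE 0.169, adjusted p = 0.0734). It passed without NKG2A+ library 1 (adjusted p = 0.0485) or Ly49C/I+ library 1 (adjusted p = 0.0300), and under the likelihood ratio test and DESeq2 (adjusted p of 0.0301 and 0.0166). The log2 fold changes of Cd84 and Cd48 were 0.38 and 0.31 (adjusted p of 0.151 and 0.104). Sh2d1b2 was at 23.4 ± 11.0 CPM against 30.2 ± 7.83 CPM, a log2 fold change of -0.36 (SE 0.310, adjusted p = 0.574), and Sh2d1b1, Sh2d1a, Slamf7 and Slamf6 had adjusted p between 0.491 and 0.820.

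Between NKG2A KO and WT mice, no member was past the threshold in either population. Both populations had been sorted without NKG2A, and Klrc1 was at 0.773 to 3.83 CPM in the 13 NKG2A KO libraries and at 1.26 to 13.9 CPM in the WT uneducated libraries, so its level does not check the genotype. In uneducated cells, 0 of 8 members and 0 of 9288 genes passed the quasi-likelihood test (0%), with 619 genes at an unadjusted p under 0.05 and 1 gene called by the likelihood ratio test and by DESeq2. In Ly49C/I+ cells, 0 of 8 members and 0 of 9344 genes passed (0%), with 992 genes at an unadjusted p under 0.05, and the likelihood ratio test and DESeq2 called 60 and 118 genes. Ncr1 had the smallest p among the members in both. Its log2 fold change in NKG2A KO over WT was 0.26 in uneducated cells (SE 0.0809, adjusted p = 0.507) and 0.34 in those with Ly49C/I (SE 0.0905, adjusted p = 0.225). Of these, DESeq2 called the difference in Ly49C/I+ cells (adjusted p = 0.0260). Cd84 (0.47, adjusted p = 0.389) and Sh2d1b2 (-0.52, adjusted p = 0.538) had the largest log2 fold changes in Ly49C/I+ cells.

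The order of the 5 groups differed between members. For Ncr1 the mean rose from 611 ± 51.7 CPM (n = 9) in WT uneducated through 730 ± 88.8 CPM (n = 8) in NKG2A KO uneducated and 732 ± 72.4 CPM (n = 6) in WT Ly49C/I+ to 928 ± 108 CPM (n = 5) in NKG2A KO Ly49C/I+ and 949 ± 54.5 CPM (n = 9) in NKG2A+ cells (SD). The middle pair of these overlapped almost wholly, as did the top pair. For Sh2d1b2 the order ran from 21.1 ± 7.73 CPM (n = 5) in NKG2A KO Ly49C/I+, 23.4 ± 11.0 CPM (n = 9) in NKG2A+ and 30.2 ± 7.83 CPM (n = 6) in WT Ly49C/I+ to 48.6 ± 16.5 CPM (n = 8) and 63.4 ± 28.7 CPM (n = 9) in NKG2A KO and WT uneducated cells (SD). For Sh2d1a the group means lay between 85.4 and 95.0 CPM, closer together than the SD within the WT Ly49C/I+ group (19.2 CPM).

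Genes that act beside these receptors were read from lists. Of 10 effectors of SLAM receptors, 9 were tested and Plcg1 was under the filter. In NKG2A+ over uneducated WT cells, 3 of the 9 rose and 0 fell, against 15% of all genes tested. These were Prkcq, a kinase of the protein kinase C family (log2 fold change 0.54, SE 0.127, adjusted p = 0.00553), Fyn, the kinase that SAP recruits (0.46, SE 0.119, adjusted p = 0.0115), and Csk, a kinase that restrains Src family kinases (0.41, SE 0.127, adjusted p = 0.0309), the last named after its value was seen. In Ly49C/I+ over uneducated WT cells, where 9.2% of all genes tested were past the threshold, Inpp5d, which encodes the lipid phosphatase SHIP1, rose (0.58, SE 0.152, adjusted p = 0.0245) and Ptpn11, which encodes the tyrosine phosphatase SHP2, fell by 0.71 on the log2 scale (SE 0.213, adjusted p = 0.0433). In the NKG2A KO cells, where 16.3% of all genes tested were past the threshold, Inpp5d alone of the 9 rose (0.34, SE 0.0968, adjusted p = 0.0238), from 263 ± 23.6 CPM (n = 8) to 337 ± 54.9 CPM (n = 5, SD). The median log2 fold change of the list was 0.10 in NKG2A+ over uneducated cells and 0.22 in both Ly49C/I+ comparisons.

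All 6 genes of NKp46 signalling were tested. In NKG2A+ over uneducated WT cells, the adaptor genes Lat (log2 fold change 0.73, SE 0.157, adjusted p = 0.00292) and Lcp2, which encodes SLP-76 (0.30, SE 0.0810, adjusted p = 0.0144), rose, against the same 15% of all genes tested, and the median of the list was 0.28. Lat was at 30.5 ± 7.82 CPM in uneducated and 50.5 ± 10.7 CPM in NKG2A+ cells (SD, n = 9 each). None passed in Ly49C/I+ over uneducated WT cells (9.2% of all genes tested), and Syk, the kinase that binds phosphorylated ITAMs, rose in the NKG2A KO comparison (0.44, SE 0.137, adjusted p = 0.0372), against 16.3% of all genes tested. No gene of either list passed in NKG2A+ against Ly49C/I+ cells or between genotypes. Cd244a passed in no comparison, with log2 fold changes between 0.03 and 0.21.

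Each member tested in the 3 WT comparisons was also set beside the other genes of the 9287 that reached 5 CPM in at least 0.5 of all 37 libraries. The measure was Pearson's r of log2(CPM + 1) over the 37 libraries, which share groups, so r is a description only. Ncr1 was most like Ms4a6b (0.909), Klrb1a (0.899) and Tsc22d3 (0.870). Sh2d1b2 was most like Adam8 (0.865), Gpx1 (0.848) and Myo10 (0.843). Ly9 was most like Anxa6 (0.847), Cxcr3 (0.847) and Tmem71 (0.841), and Sh2d1b1 was most like Rhoh (0.834), Miip (0.815) and Klf10 (0.802). Values were lower for Cd84, nearest to Il18r1 (0.737), Pik3r1 (0.737) and Il18rap (0.734), and for Slamf7, nearest to Tmem179b (0.731), Nemf (0.660) and Alg13 (0.647). Cd48 was nearest to Erp44 (0.700), Serinc1 (0.669) and Actr10 (0.668), and Sh2d1a to Ccr2 (0.682), Nt5c3 (0.661) and Ndfip1 (0.615). No member was among the 3 nearest genes of another member. Spearman's rho of the same pairs was lower in some (0.641 for Sh2d1b1 with Miip, 0.429 for Slamf7 with Nemf) and higher in others (0.891 for Sh2d1b2 with Gpx1).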

How the data were processed

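The authors extracted total RNA with RNeasy Micro, amplified cDNA with SMART-Seq v4 and made Nextera XT libraries. Per the methods they trimmed reads with Trim Galore 0.5.0, mapped them with STAR 2.7.1 to GRCm38 with Ensembl release 103 genes, and deposited raw counts of reads per gene for each of 37 libraries. Sources used here name neither the counting program nor its use of strand. The authors' own GC correction is not in these counts. The 5 summary lines of each file were left out: reads on no gene came to 2.69% to 6.83%, ambiguous reads to 4.04% to 4.60% and reads without a unique position to 11.3% to 13.8%. Such reads are lost most from stretches shared between genes. Reads carry no molecular identifiers, and limits drawn from counts hold for counting error alone. No 2 libraries of a group agreed within sampling noise.

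Libraries were grouped by GEO's labels. For WT Ly49C/I+ libraries the numbers 1, 2, 4, 5, 7 and 8 come from a second label line, and some titles differ. The title alone gives number 5 to 1 uneducated WT library, whose second label line carries the 4 of another. A gene was tested where 0.5 or more of the compared libraries reached 5 CPM, by edgeR 4.0.16 under R 4.3.3 (TMM scaling, quasi-likelihood test, Benjamini-Hochberg adjustment, threshold 0.05), fitting the compared groups alone. All 9 and 9 libraries entered the comparison of NKG2A+ with uneducated cells. The alternatives were the likelihood ratio test, DESeq2 1.42.0, RLE factors, no CPM threshold, GC and length offsets (splines with 5 degrees of freedom), the replicate number as a block, all 37 libraries in 1 fit, no WT library numbered 5, and leaving out each library once. The ratio of Sh2d1b1 to Sh2d1b2 was tested with scipy 1.17.1. Gene models came from GENCODE M21 (GRCm38), which names 52093 of the 53700 genes. The genes named are every member in every comparison, 4 other SLAM genes, at most 2 rises and 2 falls past the threshold per list and comparison, the 3 genes most like a member, and Klrc1 and Klra9. Csk, Plcg1 and the marker genes were named outside this rule, after their values were seen. Members and lists were chosen with earlier results of these data known. 1 of the marker lists is not reported here.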

Additional observations from a re-analysis of the deposited data

Results flagged for a closer look

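In each of the 45 combinations of 9 members and 5 groups, the highest and lowest library were compared with the rest of the group by Dixon's test at 95%. Chance alone marks about 1 in 20 such groups, and 2 of 45 were marked. Slamf6 stood at 16.4 CPM in WT uneducated library 5, where the next highest of the 9 uneducated libraries held 6.33 CPM. Sh2d1b1 stood at 90.3 CPM in NKG2A KO uneducated library 6, where the next highest of the 8 libraries held 61.3 CPM. Slamf6 reached the threshold in NKG2A+ over uneducated WT cells only in the 2 settings without WT uneducated library 5. The call of Sh2d1b1 in Ly49C/I+ over uneducated NKG2A KO cells was kept whichever library was left out (adjusted p of 0.00239 to 0.0362). It was lost in 2 of all 21 alternatives, those with the replicate block.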

How the results depend on the processing

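Counts are of genes or members past the threshold, and other values are log2 fold changes. In NKG2A+ over uneducated WT cells, the alternatives gave 1025 to 1728 genes (1404 in the text) and 3 to 5 members. Calls of Ncr1, Ly9 and Sh2d1b2 held in all 27. With GC and length offsets Sh2d1a was -0.094, and -0.099 with the replicate block added. Without the libraries numbered 5 Slamf7 was 0.051. With 1 library left out Slamf7 ranged from -0.071 to 0.0465 and Cd48 from -0.0347 to 0.0577.

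In Ly49C/I+ over uneducated WT cells (855 genes, 2 members), no CPM threshold gave 451 genes and 0 members, RLE factors 1 member, and all 37 libraries in 1 fit 1528 genes. With 1 library left out the ranges were 466 to 1227 genes and 0 to 2 members, and Cd84 ran from -0.11 to 0.0863. The extremes came without Ly49C/I+ library 7 (466) and without uneducated library 5 (1227), and uneducated library 3 (539) and Ly49C/I+ library 5 (564) also lowered the count.

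In NKG2A+ against Ly49C/I+ WT cells (254 genes, 1 member), the likelihood ratio test gave 442 genes and 2 members, DESeq2 558 and 2, no CPM threshold 104 genes, and no library numbered 5 124 genes. With 1 library left out the ranges were 147 (without Ly49C/I+ library 7) to 306 genes and 1 to 2 members, and Sh2d1a ran from -0.13 to 0.0381.

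In the NKG2A KO comparison of Ly49C/I+ with uneducated cells (1519 genes, 4 members), no CPM threshold gave 889 genes and 2 members, and Cd48 was 0.11 with GC and length offsets. With 1 library left out the ranges were 967 (without Ly49C/I+ library 4) to 1763 genes and 2 to 4 members, with Cd48 from -0.0747 to 0.0554 and Sh2d1a from -0.0771 to 0.0437.

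Between genotypes, the likelihood ratio test and DESeq2 each gave 1 gene in uneducated cells, 60 and 118 genes in Ly49C/I+ cells (DESeq2 1 member), and 1 gene each for the difference of effects. All 37 libraries in 1 fit gave 18 genes in Ly49C/I+ cells. In uneducated cells Cd48 was 0.0362 with GC and length offsets, and without the library numbered 5 Slamf7 was 0.0407 and Sh2d1b1 -0.0286. With 1 library left out the count in Ly49C/I+ cells ranged from 0 to 15 (without WT Ly49C/I+ library 1), Sh2d1a there from -0.17 to 0.0015, and in uneducated cells Cd84 from -0.088 to 0.057, Cd48 from -0.0853 to 0.0295, Slamf7 from -0.0728 to 0.0407 and Sh2d1b1 from -0.0286 to 0.18. The difference of effects ranged from -0.27 to 0.0126 for Sh2d1b2.

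Replicate numbers were not taken to pair the libraries, because not every pair's correlation was over 0.1. This rule cannot exclude that libraries with the same number came from the same mice. The main fits would then leave a pairing out. Deviations of same-numbered libraries correlated at -0.0266 to 0.242 in 9 pairs of WT uneducated and NKG2A+, 0.0741 to 0.189 in 6 of uneducated and Ly49C/I+, 0.0342 to 0.111 in 6 of NKG2A+ and Ly49C/I+, and 0.0242 to 0.267 in 5 NKG2A KO pairs, and 6, 5, 3 and 3 libraries correlated best with their own number, which is a hint from the data and not from the design. With the replicate block, members called in Ly49C/I+ over uneducated WT cells were 4, with Cd48 (-0.36, adjusted p = 0.0364) and Sh2d1b1 (0.65, adjusted p = 0.0438) added, and 4 with GC and length offsets, with Ly9 (0.51, adjusted p = 0.0330) and Sh2d1b1 (0.75, adjusted p = 0.0258) added. In NKG2A KO cells the block gave 748 genes and 0 members (adjusted p of the 4 called members 0.0554 to 0.0664), and with the offsets 651 genes and 1 member, with Cd48 at 0.0654 and 0.11 and Sh2d1a at 0.0104 under the block. Under the block Sh2d1a was 0.0167 in NKG2A+ against Ly49C/I+ cells, and the differences of effect of Ncr1, Sh2d1b1 and Sh2d1b2 were -0.0346, -0.12 and 0.21, or -0.14, -0.18 and 0.18 with the offsets.

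Calls of the Sh2d1b1 to Sh2d1b2 ratio held with 0.5 CPM added, without the WT libraries numbered 5, and with any 1 library left out. Of 1542 values of single genes or ratios under an alternative, 1448 kept direction and side of the threshold, 35 lost a call, 13 gained one and 46 changed sign. The causes were not tested. Depth limits Slamf6 most, at 16 to 241 counts a library.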
